A study of Mus musculus with 22 samples.

Results

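Bladders of mice carrying a mutant p53 allele switched on from a luminal driver, after exposure to a bladder carcinogen, were compared with normal bladders on Agilent one-colour gene expression arrays. The 3 arrays of the first group came from animals with the alleles Upk2-CreERT2, LSL-RFP and Trp53R172H/+, given tamoxifen to activate the Cre and then N-butyl-N-(4-hydroxybutyl)nitrosamine (BBN) in the drinking water for 24 weeks, and were taken at 8 months of age as bladder tumor. They are called the R172H bladders here. The 3 arrays of the second group came from wild-type mice of 8 months that had neither tamoxifen nor BBN. Their tissue is labelled normal bladder urothelium, while the extraction protocol speaks of whole bladders. These 6 arrays were chosen by their titles from 22 arrays in 8 groups. The other 16 arrays, all from BBN-treated mice, are used for reference: Upk2-Cre without a mutant allele (2 arrays), Upk2-Cre with Trp53R270H/+ (2), Krt5-Cre alone (2), Krt5-Cre with Trp53R172H/+ (4) or Trp53R270H/+ (3), each with LSL-RFP and tamoxifen, and mice with Trp53R270H/+ but neither Cre nor tamoxifen (3). The last 3 arrays are titled Trp53+/-, and without Cre their mutant allele was not switched on. The 2 groups compared differ in Cre, reporter, p53 allele, tamoxifen and BBN at the same time, so the contributions of these cannot be told apart from this contrast.

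The urothelium lines the bladder in layers. Basal cells express the keratins Krt5 and Krt14, and the superficial umbrella cells carry plaques of uroplakins (Upk genes), whose Upk2 promoter drives the Cre used here. BBN is metabolised to products that reach the urothelium through the urine, and in mice it gives invasive tumors, often with squamous features. The protein p53 is a transcription factor that responds to DNA damage, and the R172H substitution lies in its DNA-binding domain. Since the arrays read RNA from pieces of tissue, fewer cells of a type and less RNA per cell cannot be told apart in any of the results.

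Levels are given as log2 signal relative to the 75th percentile of each array's probes, so 0 is that percentile and a difference of 1 is a doubling; they are not compared between genes. A gene was called when limma's adjusted p was at or under 0.05. Probes well above background made up 57.6 to 62.1% of each R172H array and 56.3 to 61.8% of each normal array, and no spot was saturated. Across genes, the R172H arrays correlated with one another at 0.961 to 0.966 and the normal arrays at 0.99 to 0.994. All 3 R172H arrays were on 1 slide together with 5 arrays of other BBN groups, and the 3 normal arrays were alone on another slide, so slide and group cannot be told apart in this contrast. Both slides were read on the same scanner. The 11 BBN arrays on the remaining slides were read on another scanner. The sex-linked genes went against the labels on 5 of the 6 arrays. R172H replicate 1, labelled male, had Xist above background and none of 4 Y-linked genes (Ddx3y, Kdm5d, Uty, Eif2s3y). R172H replicate 2 and the 3 normal arrays, labelled female, had all 4 Y-linked genes and no Xist, and only R172H replicate 3 matched its label. Counts are therefore also given without R172H replicates 1 and 2. That leaves 1 array of the group, which is then assumed to vary like the other groups. It drops R172H arrays at odds with their labels but keeps the normal arrays, which are at odds too. It does not test sex, since R172H replicate 2 and the normal arrays showed the same pattern of these genes. A call is said to be kept when the gene was called in the same direction with each of the 6 arrays left out in turn. Nothing in the labels says more of how the 3 animals of a group relate. The SEs and p-values rest on the spread within groups, pooled over all 8 groups and 22 arrays. They do not measure the spread of the 6 arrays alone.

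Many genes differed in both directions. Of 17404 genes tested, 4253 were called, which is 24.4%: 1988 were higher in the R172H bladders (11.4%) and 2265 lower (13.0%). At 2-fold or more, 1853 were higher and 1985 lower. The values of the groups did not overlap in 10359 of the 17404 genes, called or not. In 5345 of these the R172H bladders were higher and in 5014 lower. A lack of overlap was thus common, and where it is given below it does not by itself set a gene apart. Counts in the gene lists below are to be read against the shares of 24.4%, 11.4% and 13.0%. Some lists, such as apoptosis genes and integrins and laminins, lie near them. The median difference over all tested genes was 0.06. With 1 array left out the count was 2846 to 3338, and without R172H replicates 1 and 2 it was 1762. It rose to 7923 when only the 6 arrays were fitted (4058 higher and 3865 lower) and to 9696 with array weights (5004 higher and 4692 lower), so that which direction held more genes depended on the fit.

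**Figure D1:**
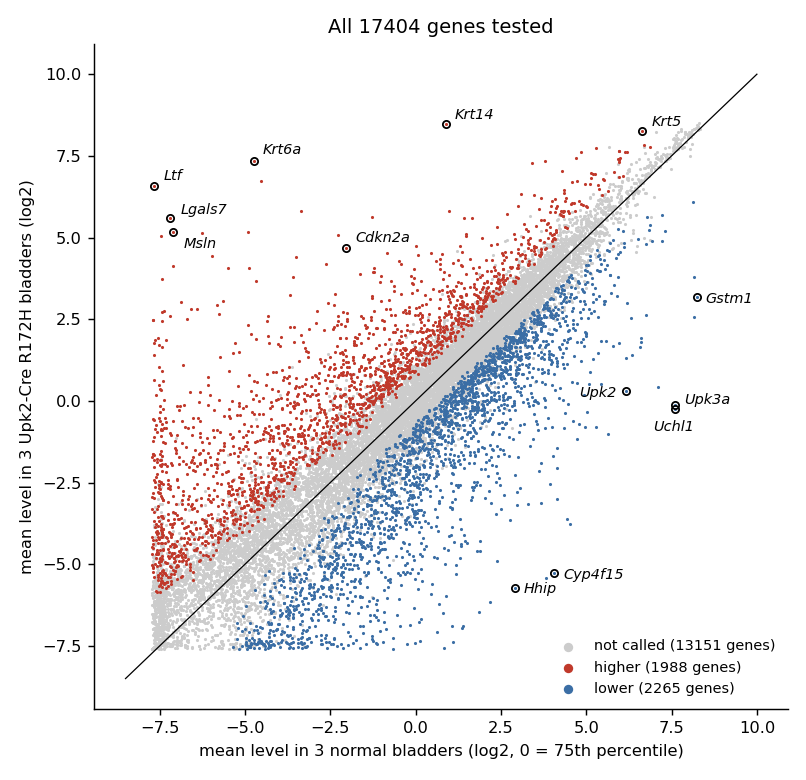
Mean log2 level of each tested gene in the 3 normal bladders (horizontal) and the 3 R172H bladders (vertical), with genes called higher in red, lower in blue and the others in grey. The line marks equal levels; Krt6a, Ltf, Lgals7 and Msln lie far above it and Cyp4f15, Hhip, Uchl1 and Upk3a far below it, and 1988 genes were called higher and 2265 lower.

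Among the 10 genes with the largest rise were keratins and neutrophil genes. Where a gene was not well above background on any array of one group, its change is given as a bound, the mean of the brighter group over the lowest level that counted as above background in the other. Ltf, which encodes the iron-binding lactoferrin of neutrophil granules and secretions, stood at -7.67, -7.39 and -7.92 in the normal bladders and at 5.09, 7.13 and 7.54 in the R172H bladders. The groups were far apart, with no normal array above background, and the rise was at least 4042-fold (adjusted p = 1.17e-06). Lgals7, a galectin of stratified epithelia, was at -6.61, -7.26 and -7.77 against 5.68, 5.49 and 5.65, at least 2045-fold higher (adjusted p = 3.01e-09). Among the R172H arrays it varied little. Msln, the surface protein mesothelin, was at least 1507-fold higher (5.45, 4.76 and 5.28 in the R172H bladders; adjusted p = 1.41e-07). Stfa1, a cysteine protease inhibitor of the stefin A family, was at least 1473-fold higher, and Krt6b at least 1402-fold. The family members are similar in sequence, and probes for Stfa1, Krt6a and Krt6b may read relatives. Calcb, a calcitonin gene-related peptide, was at least 742-fold higher, and Arg1, the arginase of alternatively activated myeloid cells, at least 563-fold. Cnfn, or cornifelin, a protein of the cornified envelope, read 2.32, 5.69 and 5.31 in the R172H bladders and was at least 912.5-fold higher. Krt6a and Krt17, given with the basal genes, complete the 10 highest.

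The 10 lowest genes included enzymes, transporters and genes of the hedgehog and uroplakin programmes. Cyp4f15, a fatty acid hydroxylase, was at 3.94, 4.16 and 4.06 in the normal bladders and at -4.28, -4.29 and -7.27 in the R172H bladders. It fell by 9.34 on the log2 scale (SE 1.02, adjusted p = 1.41e-05), and the groups did not overlap. Wfdc15b fell by 9.25. Slc47a1, an exporter of organic cations and drugs, fell by 8.33. Car3, a carbonic anhydrase, stood at 4.90, 4.14 and 4.55 against -3.87, -2.64 and -4.83, a difference of -8.31. Itga11, an integrin subunit that binds collagen, fell by 8.05. Snx31, a sorting nexin of umbrella cells, was at 0.89, 0.90 and 0.68 in the normal bladders and was not well above background on any R172H array, which makes it at least 68.3-fold lower. By the same measure Fam183b was at least 100.1-fold lower and Cyp1a1, an oxidase of aromatic compounds induced by the aryl hydrocarbon receptor, at least 99.8-fold lower. Hhip and Upk3a, described below, complete the set.

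Basal and keratinocyte genes were higher as a group: of 24 tested, 17 rose and none fell, with a median difference of 2.14 against 0.06 over all genes. Of the 17 calls 14 were kept, and without R172H replicates 1 and 2 there were 11. Krt14, a keratin of basal cells, was at 2.03, 0.00 and 0.61 in the normal bladders and at 8.28, 8.37 and 8.77 in the R172H bladders. Every R172H array lay above every normal array, and the rise was 7.59 (SE 0.65, adjusted p = 1.95e-06). Krt5, its basal partner, was high in both groups. It read 6.74, 6.77 and 6.42 in the normal bladders and 8.11, 7.92 and 8.73 in the R172H bladders, a rise of 1.61 (SE 0.47, adjusted p = 0.0199) whose call was lost without R172H replicate 3 (adjusted p = 0.0877) and without normal replicate 3 (adjusted p = 0.0711). The keratins of wound and hyperproliferative epithelium rose too. Krt6a went from -4.08, -5.28 and -4.86 to 7.60, 5.69 and 8.70, a difference of 12.07 (SE 0.81, adjusted p = 1.75e-07). Krt17 rose by 11.26 and Krt16 by 7.35, without overlap between the groups for either. Dsg3, a desmoglein of basal keratinocyte junctions, was at least 65.4-fold higher. The hemidesmosome genes Itga6 and Itgb4 rose by 2.11 and 1.75, and both calls were kept. Members that were not called include Krt15, at 0.40 (adjusted p = 0.755), and Trp63, the p53 relative that specifies basal cells, at -0.39 (adjusted p = 0.538; another probe of Trp63 gave 0.32).

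**Figure D2:**
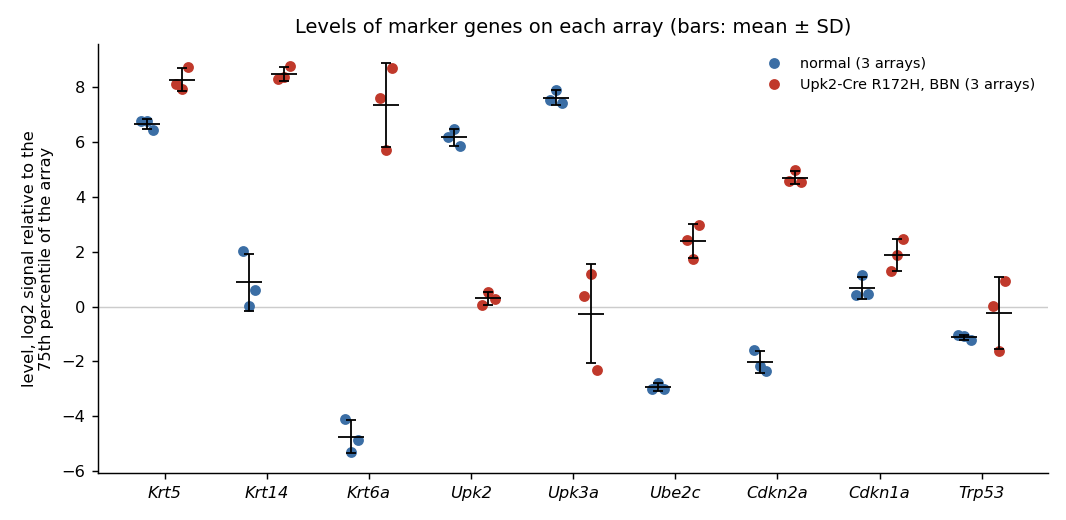
Level of 9 genes on each array, in log2 units relative to the array's 75th percentile, for the 3 normal bladders (blue) and the 3 R172H bladders (red); black bars give the mean and SD of each group. Krt14, Krt6a, Ube2c and Cdkn2a stand clear of the normal arrays on the high side and Upk2 and Upk3a on the low side, while the Trp53 values of the groups overlap.

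Squamous differentiation genes, which build the cornified layer of skin-like epithelium, rose in 22 of 33 tested members and fell in 1, with a median difference of 4.07 (3.95 with bounded genes at their bound). Of the 22, 17 were kept, and 14 were called without R172H replicates 1 and 2. Calml3, a calmodulin-like protein of keratinocytes, read -5.51, -4.24 and -4.90 in the normal bladders and 2.97, 4.13 and 5.14 in the R172H bladders, a rise of 8.96 (SE 0.96, adjusted p = 1.23e-05). Krt13, a keratin of mucosal squamous epithelium, went from 0.95, 1.17 and 0.78 to 4.98, 5.73 and 6.77. For both genes the lowest R172H array was well above the highest normal array. Sprr2d, a small proline-rich protein that is cross-linked into the cornified envelope, was at 1.11, 4.89 and 1.42 in the R172H bladders and at least 234-fold higher than in the normal bladders. Its 3 values were uneven, with replicate 2 above the others. Its neighbour Sprr2f rose by 5.37, with values of 4.97, 6.12 and 2.47 that again peaked in replicate 2; the Sprr2 genes are near copies, so the signal cannot be assigned to 1 member with certainty. Ivl, the envelope precursor involucrin, went the other way, at 4.05, 3.32 and 3.42 in the normal bladders against 1.14, 2.41 and 0.65. That fall of 2.20 (adjusted p = 0.0462) was called with only 1 of the 6 arrays left out, R172H replicate 2. Sprr1a stood at 7.07, 7.05 and 6.87 in the normal bladders and at 6.08, 6.53 and 6.15 in the R172H bladders (adjusted p = 0.39).

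Promoters of 7 of the lists were searched for letters that known factors bind. The windows were the 250 bases before each gene's start in RefSeq on build GRCm38.p6, 32851 windows in all, read on both strands. The 12 motifs were CCAAT (bound by NF-Y), TTTGAA with its variant TTCGAA (cell cycle homology regions), TGANTCA (AP-1), TTCNNNGAA (STAT factors), GTAAACA (forkhead factors) and GGGCGG (Sp1), then TTTCCCGC with its variants TTTCGCGC as well as TTTGGCGC (E2F), and the core of the interferon-stimulated response element together with a stricter form contained in it. The motifs described below were picked after the shares were seen. TGANTCA, the letters bound by AP-1 family factors, was in 15 of 27 squamous windows (55.6%), belonging to 12 genes that included Krt13, Lor and Ivl, against 6.75% of all windows. It was in none of the 14 windows of the basal and keratinocyte list, which cover only 11 of its 24 tested members. None of the mitosis or DNA replication windows held it either. Shares in the other lists were 20% for interferon, 12% for neutrophil and 7.41% for luminal windows. A match is a description of the sequence, and binding was not measured. The windows of 2 neighbouring Sprr2 genes are printed 5′ to 3′ to show the element at a like place in both, with the match in capitals.
Sprr2d (chr3:92338890-92339139, plus strand): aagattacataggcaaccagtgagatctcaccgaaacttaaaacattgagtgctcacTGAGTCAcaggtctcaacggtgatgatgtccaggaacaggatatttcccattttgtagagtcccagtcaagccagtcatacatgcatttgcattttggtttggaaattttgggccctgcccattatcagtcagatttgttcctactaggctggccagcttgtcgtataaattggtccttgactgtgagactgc
Sprr2f (chr3:92364937-92365186, plus strand): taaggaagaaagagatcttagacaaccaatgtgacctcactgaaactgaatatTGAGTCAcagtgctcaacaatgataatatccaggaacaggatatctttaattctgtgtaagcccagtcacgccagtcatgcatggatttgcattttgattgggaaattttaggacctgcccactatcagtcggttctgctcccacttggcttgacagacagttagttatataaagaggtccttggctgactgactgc
The element lies 193 bases before the start in Sprr2d and 197 in Sprr2f.

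Luminal urothelial genes were lower on balance: 13 of 31 fell and 4 rose, with a median of -1.37. Of the 13 calls 7 were kept. With normal replicate 1, 2 or 3 left out 8 genes were called lower, and likewise 8 without R172H replicates 1 and 2. The uroplakins led the fall. Upk1a, a tetraspanin of the plaques, was at 8.12, 8.34 and 8.01 in the normal bladders and at 2.05, 3.89 and 1.75 in the R172H bladders, so that every R172H array lay far below every normal array. Upk2 was at 6.18, 6.47 and 5.83 against 0.06, 0.55 and 0.29. It fell by 5.86 (SE 0.90, adjusted p = 0.000217), and the R172H arrays were close together. Upk3a was at 7.52, 7.90 and 7.41 against 0.37, 1.17 and -2.30, a fall of 7.86 (SE 1.88, adjusted p = 0.00616), and replicate 3 was the lowest. Upk1b fell by 4.13. Pparg, a nuclear receptor of luminal differentiation, fell by 2.26 (adjusted p = 0.025), but its call was lost with each array but R172H replicate 1 left out. Gata3 and Foxa1, transcription factors of the same programme, differed by -1.37 (adjusted p = 0.108) and -1.26 (adjusted p = 0.0634) and were not called. Krt20, the umbrella cell keratin, was at 4.64, 5.08 and 4.54 against 2.75, 4.54 and 2.70 and was not called either (adjusted p = 0.246). The 4 genes that rose were Cldn3, Ehf, Klf5 and Elf3. Cldn3, a tight junction claudin, was not above background on any normal array and read 2.25, 2.38 and 3.58 in the R172H bladders, at least 280.3-fold higher. Ehf rose by 1.66 and Klf5 by 1.12, and Elf3 was called at an adjusted p of 0.0301 with limma, all 3 being epithelial transcription factors; the call of Elf3 was lost without R172H replicate 1 or 3 or normal replicate 1 or 3.

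All 28 tested genes of mitosis were higher, with a median of 4.05 (3.87 with bounded genes at their bound). Of these calls 27 were kept, and 27 genes were called without R172H replicates 1 and 2. Ube2c, the ubiquitin-conjugating enzyme of the anaphase-promoting complex, was at -2.99, -2.77 and -3.02 in the normal bladders and at 2.41, 1.74 and 2.97 in the R172H bladders. The groups were widely apart, by 5.30 (SE 0.50, adjusted p = 4.37e-06). Plk1, a kinase of mitotic entry and spindle assembly, rose from -1.79, -2.15 and -2.07 to 2.83, 1.92 and 3.29, and Birc5, or survivin, from -0.50, -0.26 and -0.68 to 4.40, 3.67 and 4.74. Top2a, the topoisomerase that untangles chromosomes, rose by 4.46. R172H replicate 2 was the lowest of the 3 for each of these 4 genes. The list mean on R172H replicates 1, 2 and 3 was 4.12, 3.33 and 4.42 above the normal mean.

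The promoters of these genes carried CCAAT, the letters bound by the NF-Y complex, in 22 of 25 windows (88%), against 33.8% of all windows. GGGCGG, the core bound by Sp1 family factors, was in 72% of them against 32.7% of all. Neither motif was particular to this list. In the DNA replication list CCAAT was in 68.2% of windows and GGGCGG in 81.8%. GGGCGG was also in 51.9% of the luminal windows, but in 14.8% of the squamous ones. The windows of Ube2c and Plk1 are printed, as the called members of smallest p with 1 window that holds CCAAT. Every CCAAT, or ATTGG where it lies on the other strand, is in capitals.
Ube2c (chr2:164769679-164769928, plus strand): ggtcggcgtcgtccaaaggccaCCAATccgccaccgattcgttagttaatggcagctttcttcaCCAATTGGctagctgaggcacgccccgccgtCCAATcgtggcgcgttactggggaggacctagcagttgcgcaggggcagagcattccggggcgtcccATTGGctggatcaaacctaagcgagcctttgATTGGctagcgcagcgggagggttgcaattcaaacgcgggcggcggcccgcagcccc
Plk1 (chr7:122159185-122159434, plus strand): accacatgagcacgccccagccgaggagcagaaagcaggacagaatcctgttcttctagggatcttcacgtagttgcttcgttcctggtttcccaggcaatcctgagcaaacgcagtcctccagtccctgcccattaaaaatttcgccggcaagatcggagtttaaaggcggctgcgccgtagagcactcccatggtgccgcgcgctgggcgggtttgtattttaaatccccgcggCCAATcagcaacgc
Ube2c holds 6 matches, between 57 and 228 bases before the start, and Plk1 holds 1, at 14 bases.

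DNA replication genes rose in 23 of 25 tested members, with a median of 2.03 and 16 calls kept; 15 were called without R172H replicates 1 and 2. Mcm5, a subunit of the replicative helicase, went from -0.23, -1.21 and -1.51 to 2.74, 1.81 and 2.87. Uhrf1, which couples DNA methylation to replication, rose by 3.95, Ccne1, the cyclin of S phase entry, by 3.86, and Ccna2 by 3.99. Pcna, the sliding clamp, was not called at 0.72 (adjusted p = 0.209). Among 25 DNA repair genes 10 rose and none fell, with 7 calls kept. The exonuclease Exo1 rose by 4.56. Lig1, the ligase of replication and excision repair, went from 1.49, 1.66 and 1.32 to 3.58, 2.79 and 3.40, again with replicate 2 lowest.

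The p53 gene and its targets showed no common direction. Trp53 itself was at -1.05, -1.08 and -1.23 in the normal bladders and at 0.01, -1.63 and 0.94 in the R172H bladders, so that replicate 2 lay below the normal arrays and the others above. The difference of 0.89 (SE 0.67) was not called (adjusted p = 0.36), and the array does not tell the mutant from the wild-type transcript. Cdkn1a, the cell cycle inhibitor p21, was at 0.42, 1.13 and 0.47 against 1.31, 1.89 and 2.47. These values do not overlap, but the difference of 1.22 was not called (SE 0.58, adjusted p = 0.139), and its other probe gave 0.11. Of 29 targets, 5 rose and 4 fell, and the median was 0.19. Of the rises 2 were kept and of the falls none was; the rises numbered 2 without R172H replicate 3 or normal replicate 1 or 3 and 3 without R172H replicate 2, the falls 2 without R172H replicate 1 or 2 or normal replicate 2 or 3, and without R172H replicates 1 and 2 there was 1 of each. Ckap2, a spindle protein, rose by 3.08 and Gdf15, a stress cytokine, by 3.45, both kept. Phlda3 rose by 1.26, a call lost without R172H replicate 3 or normal replicate 1 or 3, and Ddit4 and Pmaip1 by 1.56 and 1.75, with calls kept only without normal replicate 2 and R172H replicate 1. Gadd45a, a growth arrest gene, fell by 1.56 (adjusted p = 0.00947), a call lost without R172H replicate 3. Ei24 fell by 0.97, Pltp by 2.54 and Polk by 0.94. The call of Ei24 was lost without R172H replicate 2, that of Pltp without any 1 array, and that of Polk was kept only without R172H replicate 3. Mdm2 and Bax, a p53 antagonist and a mediator of apoptosis, were at -0.22 and 0.36 and were not called.

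Among 20 relatives and regulators of p53, 4 rose and 1 fell. That is 5 called of 20, near the 24.4% over all genes. Cdkn2a, the locus of p16 and p19ARF, was at -1.59, -2.17 and -2.35 in the normal bladders and at 4.58, 4.97 and 4.53 in the R172H bladders. It rose by 6.73 (SE 0.52, adjusted p = 7.7e-07), and its other probe gave 7.70. The 3 R172H arrays lay close to one another and far from the normal arrays. Chek1, the kinase of the replication checkpoint, rose by 3.75 and Trp73, a p53 relative, by 3.50. Cdkn2c rose by 1.41 and Trp53bp1 fell by 0.81, both with calls that were lost without single arrays: Cdkn2c without R172H replicate 1 or 3 or normal replicate 1 or 3, and Trp53bp1 with every array but normal replicate 2. Of 22 apoptosis genes 3 rose, namely Casp1, by 3.15, Bak1, by 1.91, and Casp14, a caspase of cornification, and none fell; 1 was called without R172H replicates 1 and 2.

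Genes of neutrophils and the acute phase rose in 17 of 26 tested members and none fell, with a median of 3.29 (2.24 with bounded genes at their bound). Of these 11 were kept, and 6 were called without R172H replicates 1 and 2. S100a9, a calcium-binding protein of neutrophils that squamous epithelium also makes, was at -2.89, -3.47 and -4.12 against 3.94, 3.88 and 5.35. All 3 R172H values were above all 3 normal values, and the rise was 7.88 (SE 1.29, adjusted p = 0.000355). Cxcl5, a chemokine that attracts neutrophils, was at least 277.8-fold higher, and Il1b, the inflammatory cytokine, rose by 3.88. Ltf and Stfa1, among the 10 highest genes of the contrast, belong to this list. Macrophage genes moved less as a group. Of 17 tested, 4 rose, namely Arg1, Spp1, Cd68 and Msr1, of which the first pair were kept. The rises numbered 2 without R172H replicate 2 or normal replicate 3. Spp1, or osteopontin, was at -4.45, -4.26 and -4.39 against 2.52, 2.67 and 2.17. Cd68 rose by 1.52, a call lost without R172H replicate 2 or normal replicate 3, and Msr1 by 1.85, a call kept only without R172H replicate 3. The defining markers Adgre1 and Csf1r were at -0.16 and -0.25 and were not called.

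Of 22 lymphocyte genes, 2 rose and none fell, with a median of 0.06. Foxp3, the factor of regulatory T cells, was at least 2.76-fold higher and its call was kept, but normexp background correction left it at an adjusted p of 0.361. Cd4 rose by 1.30, from 0.37, 0.61 and 0.26 to 1.69, 1.69 and 1.75, but the call was lost whichever array was left out. Cd3e was at 1.01 (adjusted p = 0.417) and Cd3d at -1.09 (adjusted p = 0.476), and Ms4a1, a B cell marker, was not above background on any array of either group. None of 15 genes of antigen presentation was called. Their list mean was 1.04, -0.15 and -1.19 relative to the normal mean on R172H replicates 1, 2 and 3, so the animals spread in both directions. H2-Eb1, a class II chain, was at 5.70, 3.61 and 1.64. Of 23 chemokines and receptors, Ccl4 and Cx3cl1 rose and Cxcl14 and Cxcl12 fell, and of these Cxcl14, at -3.75, was kept; the other probe of Cxcl14 gave 0.41, and with the mean over probes the difference was -1.67 and not called (adjusted p = 0.0571). Without R172H replicate 1 or normal replicate 3 no chemokine was called higher, and without R172H replicate 3 there were 4.

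Interferon response genes rose in 9 of 24 tested members and none fell, with a median of 2.10, and 8 of the 9 were kept. Without R172H replicates 1 and 2 there were 3, and the list mean was 2.93, 2.36 and 1.66 on R172H replicates 1, 2 and 3. Xaf1, an interferon-induced binding partner of XIAP, was at -5.17, -6.57 and -5.57 in the normal bladders and at 3.31, 3.13 and 1.56 in the R172H bladders, although its other probe gave 1.27 in place of 8.44. Oasl1, a relative of the sensors of double-stranded RNA, rose by 4.67 and Irf7, the factor that amplifies interferon production, by 2.94. Oas1a, which makes the activator of RNase L, went from 0.10, 0.38 and -0.25 to 4.83, 4.32 and 4.29. Isg15, a ubiquitin-like modifier, went from 0.80, 0.83 and 0.66 to 5.13, 4.51 and 3.88. In both genes the groups did not overlap, and replicate 3 was the lowest R172H array. The core of the interferon-stimulated response element, a pair of GAAA units with 2 bases between them, was in 10 of 25 windows of the list (40%), against 2.98% of all windows. The windows of Oas1a and Isg15 are printed to show the repeated GAAA units, in capitals, close to the start.
Oas1a (chr5:120907526-120907775, minus strand): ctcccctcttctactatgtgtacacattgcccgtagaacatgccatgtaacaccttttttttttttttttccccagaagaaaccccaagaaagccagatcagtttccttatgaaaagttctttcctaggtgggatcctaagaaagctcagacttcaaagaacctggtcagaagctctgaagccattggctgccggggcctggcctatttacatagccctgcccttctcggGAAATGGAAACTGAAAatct
Isg15 (chr4:156200819-156201068, minus strand): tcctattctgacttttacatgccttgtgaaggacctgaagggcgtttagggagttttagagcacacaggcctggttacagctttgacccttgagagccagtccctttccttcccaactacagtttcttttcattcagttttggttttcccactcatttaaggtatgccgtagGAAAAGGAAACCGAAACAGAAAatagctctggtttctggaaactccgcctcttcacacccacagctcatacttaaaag
Oas1a holds 2 overlapping matches, 14 and 20 bases before the start, and Isg15 holds 3, between 66 and 78 bases.

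**Figure D3:**
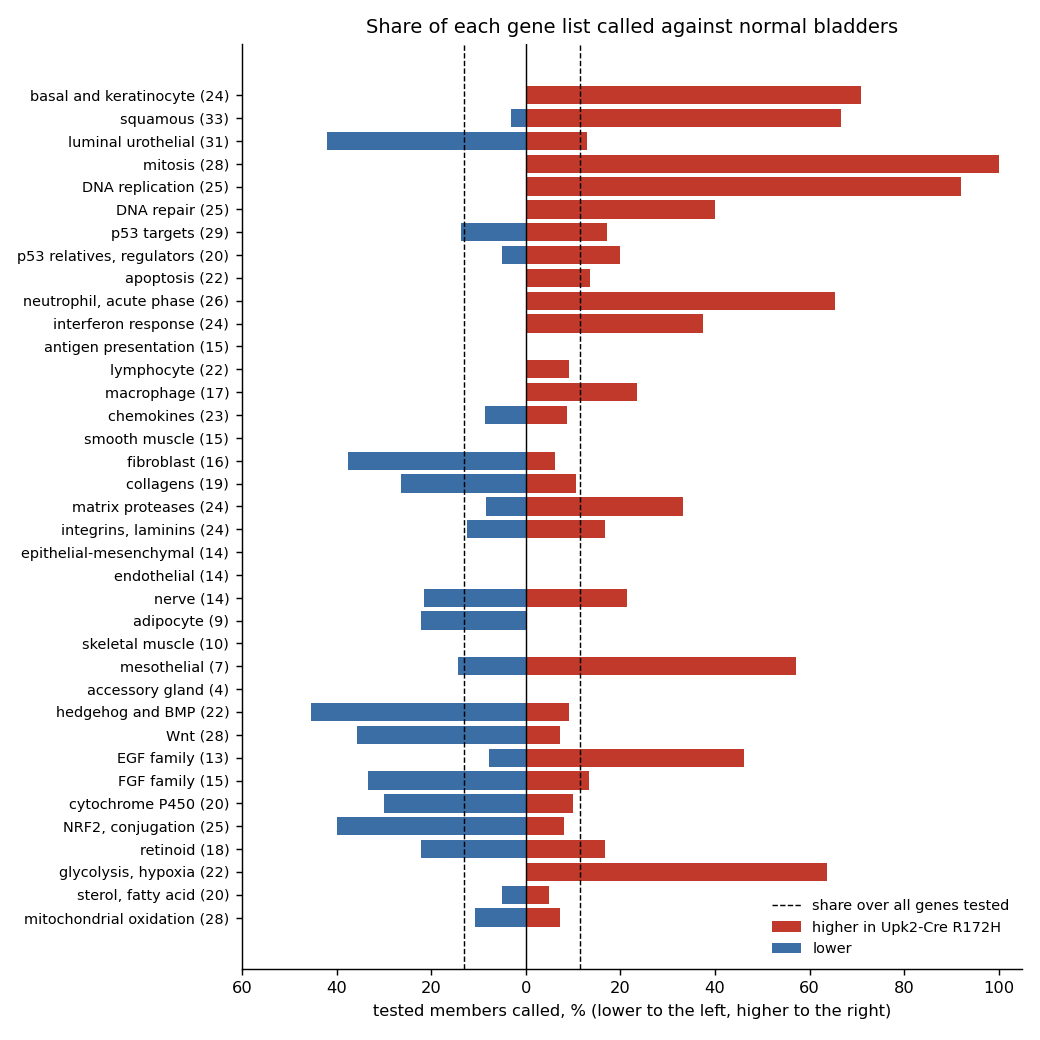
Share of the tested members of each of 37 gene lists that were called higher (red, to the right) or lower (blue, to the left) in the R172H bladders against the normal bladders, in percent; the number of tested members stands in brackets. Dashed lines mark the shares over all tested genes, 11.4% higher and 13.0% lower; mitosis and DNA replication reach furthest to the right, and hedgehog and BMP furthest to the left.

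Of 16 genes of fibroblasts, the cells of the connective tissue, 6 fell and 1 rose, with a median of -1.84; of the falls 4 were kept, and 4 genes were called lower without R172H replicates 1 and 2. Fbln1, a matrix glycoprotein, was at 4.31, 4.70 and 4.02 in the normal bladders and at 0.69, 1.01 and 1.36 in the R172H bladders. Pi16, a marker of adventitial fibroblasts, was at 5.76, 6.46 and 5.70 against 2.11, 1.72 and 1.49. Tcf21, a transcription factor of mesenchymal progenitors, fell by 5.83 and Col14a1 by 3.59. For these 4 genes no R172H array reached the level of a normal array. Ly6c1, which rose by 1.69, was the exception, and its other probe gave 0.39; endothelial and myeloid cells express the Ly6c genes too. Dcn and Pdgfra, defining fibroblast markers, fell by 2.33 and 2.77, but the call of Dcn was lost whichever array was left out and that of Pdgfra with every array but R172H replicate 2. Among 19 collagen genes 5 fell and 2 rose. Col16a1 fell by 2.83 and Col6a3 by 3.26, both kept, while Col6a1, Col6a2 and Col8a1 each lost their call without at least R172H replicate 3 and normal replicate 1. Lower collagens numbered 3 without R172H replicate 1 or normal replicate 2, and 2 without R172H replicate 3 or normal replicate 1. Col7a1, which anchors the epithelium to the stroma, went from 0.05, -0.43 and 0.19 to 4.63, 4.42 and 3.04.

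Matrix proteases and their inhibitors rose in 8 of 24 members and fell in 2. Mmp7, or matrilysin, was at least 161-fold higher, with an uneven 0.53, 3.75 and 1.52 in the R172H bladders. Mmp3 and Mmp13, a stromelysin and a collagenase, were at least 6.01-fold and 9.62-fold higher. Adamts4 rose by 4.57, and its values of -0.27, 3.26 and -0.84 again peaked in replicate 2. Without R172H replicates 1 and 2, the rises numbered 2. Of 24 integrins and laminins 4 rose and 3 fell, with Itga3, a laminin receptor subunit, higher by 2.61 and Lama2, a laminin chain of muscle and nerve, lower by 5.04. None of 14 genes of the epithelial-mesenchymal transition was called, and their median was -0.29.

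Smooth muscle genes were not called in any of 15 cases, and their median was 0.78. Acta2 read 5.60, 4.86 and 4.73 in the normal bladders and 5.06, 4.95 and 4.83 in the R172H bladders. Myh11, the smooth muscle myosin, was at 0.76, 0.45 and 0.04 against 1.37, 0.78 and 1.32. The normal arrays themselves differed in this list, from -0.49 to 0.45 around their mean, and the R172H list means of 0.99, 0.53 and 0.90 lay above that range. Muscle markers were thus measured in both groups, also in the one labelled urothelium. Of 14 nerve genes 3 rose and 3 fell. Uchl1, a deubiquitinase known from neurons, had one of the smallest p-values of all: 7.37, 7.94 and 7.44 in the normal bladders against -0.72, 0.27 and 0.05, a fall of 7.72 (SE 0.38, adjusted p = 3.01e-09). Chga, a granule protein of neuroendocrine cells, was at least 7.87-fold higher, a call lost under normexp correction and without R172H replicates 1 and 2. Mesothelial genes rose in 4 of 7 members, Msln, Bnc1, Wt1 and Lrrn4, and Upk3b fell by 5.20. Bnc1, also a keratinocyte factor, was at least 37.8-fold higher and Wt1 at least 20.1-fold, with R172H values of -0.24, -0.27 and -2.67; without R172H replicates 1 and 2 the call of Wt1 was lost. Fabp4, which binds fatty acids in adipocytes and endothelium, was at 6.65, 6.84 and 6.22 against 1.23, 4.15 and -0.39; its call was lost without R172H replicate 3. The adipocyte-defining Adipoq and Plin1 were not above background on any of the 6 arrays. None of 10 skeletal muscle genes, 14 endothelial genes or 4 genes of male accessory glands was called, and none of the latter was above background on all arrays of either group. The part of other cell types in the lists above was not tested.

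Hedgehog and BMP genes, through which the urothelium and its stroma signal to each other, fell in 10 of 22 members and rose in 2, with a median of -1.27. Of the falls 8 were kept, and 7 were called without R172H replicates 1 and 2. Shh, the ligand made by basal urothelium, was at 3.61, 3.84 and 3.60 in the normal bladders and at -1.14, -0.94 and -3.64 in the R172H bladders. The fall of 5.59 (SE 1.37, adjusted p = 0.00734) left no overlap. Gli1, the target and effector of the pathway in stroma, fell from 2.90, 1.75 and 2.43 to -3.96, -2.16 and -4.23. Hhip, a decoy receptor that the pathway induces, fell by 8.62, from 3.57, 2.05 and 3.09 to -7.41, -4.72 and -5.02. Of the ligands on the stromal side, Bmp4 fell by 4.28, and Bmp5 was at least 34.2-fold lower. Grem1, which binds and blocks BMPs, went the other way and was at least 29.5-fold higher. Gli3 rose by 1.58, a call lost without R172H replicate 1 or normal replicate 2.

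Wnt genes showed a similar split, with 10 of 28 falling and 2 rising; 9 of the falls were kept, and 5 were called without R172H replicates 1 and 2. Wnt5b fell by 3.28, Wnt2, a mesenchymal ligand, by 3.76 and Wnt5a by 1.64, and the secreted modulator Dkk2 fell by 2.99. Lef1, a transcription factor of the pathway, read 0.17, 0.14 and 0.33 against -2.41, -2.46 and -3.20. The rises were in the epithelial ligands. Wnt10a went from -0.29, 0.35 and -0.42 to 3.85, 3.15 and 4.50, and Wnt7a was at least 13.6-fold higher. In the EGF family 6 of 13 genes rose and 1 fell. Areg and Ereg, ligands of the EGF receptor, rose by 4.51 and 3.86, and Hbegf by 2.57, and these 3 calls were kept. Nrg1, Egfr and Epgn were lost with several or all single arrays left out, so that without 1 array the rises numbered 3 or 4. Nrg2 fell by 3.70. In the FGF family Fgfbp1, a carrier that frees FGFs from the matrix, rose by 6.94 and Fgf18 by 2.03, and 5 of 15 genes fell. Of these Fgf9 fell by 3.34, Fgf1 by 3.32 and the feedback inhibitor Spry1 by 2.65, all kept, while Fgfr1 and Fgf7 lost their calls without R172H replicate 3 and with normal replicates 1 and 2 left out in turn. The lower FGF genes numbered 3 without R172H replicate 3 or normal replicate 1 or 2.

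Among genes that process foreign compounds, more were called lower than higher. Of 25 genes of the NRF2 response and of conjugation, 10 fell and 2 rose, with a median of -0.77; 6 of the falls were kept, and 5 genes were called lower without R172H replicates 1 and 2. Gstm1, a glutathione transferase, was at 8.19, 8.40 and 8.11 in the normal bladders and at 4.89, 2.74 and 1.88 in the R172H bladders. The R172H arrays were all lower, but by different amounts, and Gstm3, a near relative that probes may not separate from it, gave 5.62, 3.36 and 2.38 in the same order. Nqo1, a quinone reductase, fell by 3.20 and Me1, which supplies NADPH, by 2.36. Gpx2, a glutathione peroxidase of epithelia, went from 3.58, 4.02 and 3.45 up to 6.23, 5.98 and 6.40, and the cystine carrier Slc7a11 rose by 2.52, a call lost whichever array was left out. The lower genes numbered 6 without normal replicate 2 or 3. Among 20 cytochrome P450 genes 6 fell and 2 rose. The list as a whole was not shifted, with a median of -0.04 and a positive difference in 10 of the 20. Besides Cyp4f15 and Cyp1a1, Cyp1b1 went from 2.37, 2.88 and 2.51 to -2.01, -1.06 and -1.79. Cyp2b10, an enzyme induced by drugs in liver, was at least 37.7-fold higher. Of 18 retinoid genes 3 rose and 4 fell. Aldh1a3, one of the enzymes that make retinoic acid, rose by 5.20, while its relative Aldh1a2, which is typical of mesenchyme, fell by 2.99, a call lost without R172H replicate 3 or normal replicate 1. Stra6, the receptor for retinol-binding protein, rose by 3.43, and Rbp4, that protein, fell by 5.70. Lower retinoid genes numbered 1 without R172H replicate 3 and 2 without normal replicate 1.

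Glycolysis and hypoxia genes rose in 14 of 22 members and none fell, with a median of 1.59 and 11 calls kept; without R172H replicates 1 and 2 there were 6. Pgk1, phosphoglycerate kinase, was at 5.35, 5.45 and 5.07 against 7.60, 7.78 and 7.84. Slc16a3, the lactate exporter, rose from 0.55, 0.72 and 0.53 to 4.38, 4.38 and 4.04. In both genes the R172H arrays were close together and apart from the normal arrays. Pfkp, a phosphofructokinase, rose by 2.77, Eno1 by 2.12 and Ldha by 1.68. Mitochondrial oxidation genes gave 2 higher and 3 lower of 28, with none of these calls kept, and sterol and fatty acid genes 1 of each in 20, namely Srebf2, at 1.35, whose call was kept only without R172H replicate 2, and Srebf1, a fall that was kept.

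The R172H bladders were then set against the other BBN groups, to see where they stood apart from them. These comparisons share the R172H arrays with the one above and are not independent of it. Against the mean of the 6 other BBN groups, 1 of 17404 genes was called (0.00575%) and 1248 had an unadjusted p at or under 0.05. Where nothing differs, a share of 0.05 of the tested genes is expected to pass that cut-off. Of the unadjusted counts given here and below, 629 and 609 lie under that share of 17404 and 974 and 1248 above it. These counts alone do not show a difference. The mean level of each of the 37 lists was compared array by array, and for none did the 3 R172H arrays lie wholly outside the other 16. The mitosis mean, for example, ran from 2.73 to 5.20 on the other BBN arrays, around the 3.33 to 4.42 of the R172H arrays, and the squamous mean from 1.69 to 7.27. Smooth muscle genes were lower than the mean of the other BBN groups in 15 of 15 members, with a median of -1.50, and adipocyte genes in 9 of 9, at -1.80, but no member was called. The spread of the other arrays was wide for these lists: relative to the normals, the smooth muscle mean ran from 0.50 to 4.51 on the 5 arrays of the same slide and from 0.03 to 4.08 on the 11 of the other slides. Lymphocyte genes were higher in 3 of 22, with a median of -1.43. Mitosis genes were higher in 27 of 28, but at a median of 0.22. Members of a list share their cells, and these counts carry no test.

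**Figure D4:**
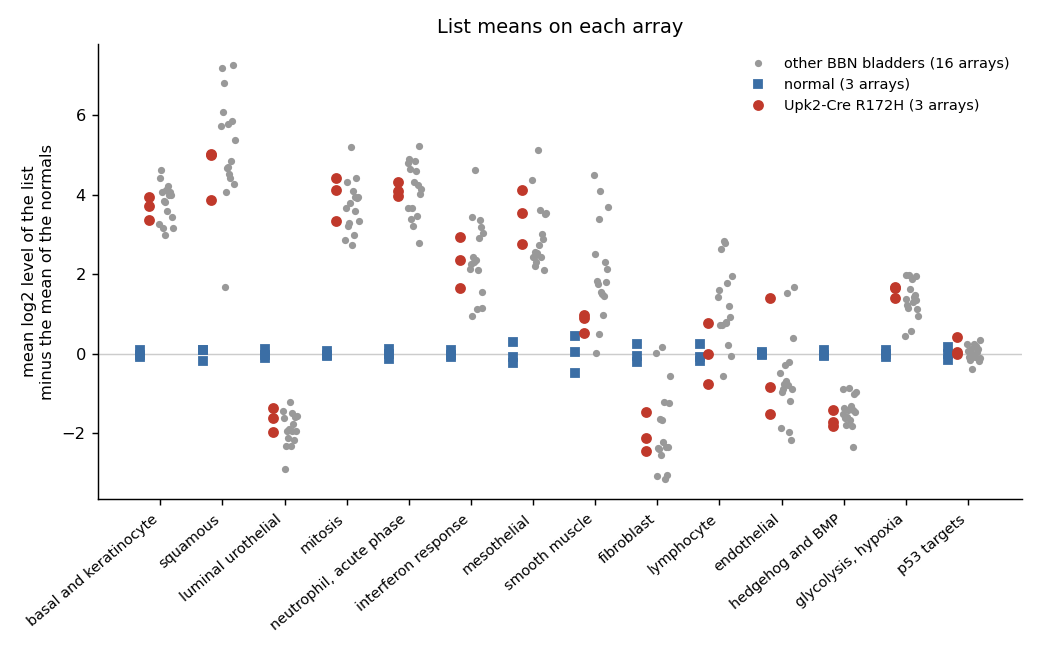
Mean log2 level of 14 gene lists on each array, as a difference from the mean of the 3 normal bladders: normal arrays in blue, R172H arrays in red and the 16 other BBN arrays in grey. The R172H arrays stand apart from the normal arrays for the basal, squamous, mitosis and neutrophil lists but in no list do all 3 red points lie outside the range of the grey points.

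The gene called was Hddc3, a pyrophosphohydrolase related to enzymes of the bacterial stringent response. It stood at -1.24, -1.80 and -1.94 in the R172H bladders and at -4.92 to -1.98, with a median of -4.15, on the 16 other BBN arrays. It was well above background on 7 of those 16 and on all 3 R172H arrays, so most of the reference values are only upper bounds on its level and the differences rest on signals near background. The R172H values lay above all 16, though barely above the pair of Upk2-Cre R270H arrays, at -2.12 and -1.98. The difference from the mean of the other BBN groups was 2.29 (SE 0.32, adjusted p = 0.0297). This call was lost with any R172H array left out, with an adjusted p of 0.476, 0.0534 and 0.207 from limma without replicates 1, 2 and 3, and also without Krt5-Cre replicate 2, Trp53R270H/+ replicate 3, either Upk2-Cre array, Upk2-Cre R270H replicate 2, any Krt5-Cre R270H array, or Krt5-Cre R172H replicate 1 or 4, where it was 0.0525 to 0.0715. Under normexp background correction the difference was 0.65 (adjusted p = 0.294). On the 5 arrays of the same slide it was -4.92 to -3.31. In the normal bladders Hddc3 was at -2.51, -2.06 and -2.40, and the difference of 0.66 from these was not called (adjusted p = 0.257).

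Upk2-Cre bladders without a mutant allele share the driver, tamoxifen and BBN. The 2 arrays of this group carry the same animal code in the labels, by which they may not be independent samples. Their sex-linked genes differed, however. Replicate 1 had Xist above background and none of the 4 Y-linked genes, and replicate 2 had all 4 and no Xist. Whether the code or the sample is at fault was not tested. Against their 2 arrays, Hddc3 was again the only call among all genes, at 3.19 (SE 0.46, adjusted p = 0.0466), with -4.92 and -4.78 in the Upk2-Cre bladders; 629 genes had an unadjusted p at or under 0.05. That call was lost whichever of the 5 arrays was left out, with adjusted p from limma between 0.145 and 0.42. It was also lost with the samples that share a code averaged (adjusted p = 0.292) and under normexp correction, where the difference was 1.04 (adjusted p = 0.798). Endothelial genes were higher in 14 of 14 members, with a median of 0.99, and squamous genes in 2 of 33, with a median of -1.65, none of them called. Against the 2 Upk2-Cre R270H arrays, which carry the other mutant allele, no gene was called by limma (0%; 974 at an unadjusted p at or under 0.05). Smooth muscle and endothelial genes were lower in all 15 and all 14 members, at medians of -2.16 and -1.39, again with no call. Both R270H arrays were on another slide, read on another scanner, and this fit does not adjust for either. With slide as a block, the median over all genes moved from -0.06 to 0.12. The smallest p-values belonged to Olfr78, Tmprss5, Kcne4, Amdhd2 and Chrm3. Of these Amdhd2, an enzyme of amino sugar metabolism, was above background on every R172H array, at 3.67, 3.72 and 3.92 against 2.37 and 2.72 (adjusted p = 0.709). With 2 arrays in each of these reference groups, a missed call does not show that the groups are alike.

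Krt5-Cre R172H bladders carry the same allele, switched on from a basal driver. Against their 4 arrays no gene was called by limma (0%; 609 at an unadjusted p at or under 0.05), and the smallest p-values were those of Hddc3, Defb48, Rimkla, Cxcr5 and Xlr3a. Hddc3 was at -4.01, -4.86, -3.42 and -4.44 there, a difference of 2.52 (adjusted p = 0.0928). Cxcr5, the receptor of follicular B and T cells, was at -1.87, -1.22 and -2.02 in the R172H bladders. It was not above background on any of the 4 Krt5-Cre R172H arrays, which makes it at least 5.81-fold lower there (adjusted p = 0.227). In the other Upk2-Cre groups it stood at -1.56 and -2.48 without a mutant allele and at -2.51 and -1.73 with R270H, and no normal array was above background. Against the normal bladders Cxcr5 was at least 12.9-fold higher (adjusted p = 0.000169). Luminal genes were higher than in Krt5-Cre R172H in 26 of 31 members, at a median of 0.40, and none was called.

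In 44 of the 17404 genes tested, all 3 R172H values lay outside all 16 other BBN values. Of these, 7 were on the high side and 37 on the low side. How many genes would do so for another 3 of these arrays was not tested. Of the 37, 16 were not above background on any R172H array, so their levels there are only upper bounds. The lowest signal counted as above background was lower on the slide of the R172H arrays than on the slides of 11 of the other BBN arrays, and its part in these counts was not tested. The 7 high genes were Hddc3, Nme4, Zfp458, Arhgap18, Ppp6r3, Zfp653 and 4833447I15Rik, all above background on the 3 R172H arrays. Nme4, a mitochondrial nucleoside diphosphate kinase, was higher by 1.02 (adjusted p = 0.558). Among the low genes above background were Pik3ca, the catalytic subunit of PI3 kinase, at -1.74 (adjusted p = 0.684), Pmepa1, an inhibitor of TGF-beta signalling, at -0.86 (adjusted p = 0.683), and Scx, a tendon transcription factor, at -1.42 (adjusted p = 0.558). These genes were picked after their values were seen.

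The 3 R172H bladders also differed from one another. The endothelial list had the widest range of all lists, with means of -0.83, 1.41 and -1.52 relative to the normals on replicates 1, 2 and 3, and the apoptosis list the narrowest. Cldn5, the claudin of blood vessels, was at 0.30, 4.31 and -0.06, and Emcn, a mucin of capillaries and veins, at 1.48, 4.22 and 0.88, against 1.26 to 1.89 and 1.96 to 2.42 in the normal bladders. Replicate 2 was above and the others below the normal arrays in both genes, which are 2 of the endothelial list picked after their values were seen. Without replicate 2, 2 endothelial genes were called lower than normal. Among the genes with the largest range were 3 of red blood cells, Alas2, Slc4a1 and Hbb-b1, each highest in replicate 2. Alas2, the erythroid enzyme of haem synthesis, was at -2.98, 3.46 and -1.68, Slc4a1, the band 3 anion exchanger, at -5.22, 1.04 and -4.06, and Hbb-b1, a beta globin, at -1.01, 4.93 and -0.11. The other BBN arrays spanned a wider range for Hbb-b1, from -7.37 to 5.16.

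Other genes of large range were high in another animal. Krt84, a keratin of hair and tongue, was at -5.24, -1.38 and 1.85, and Krt79, of the sebaceous duct, at 0.50, 0.04 and 6.03, both highest in replicate 3. The value of Krt79 there was above all 16 other BBN arrays, which reached 4.11. Avil, an actin regulator found in tuft cells and sensory neurons, was at 3.98, -1.21 and -2.01, highest in replicate 1. Osr2, a transcription factor of mesenchyme, was also highest there, at 2.98, -4.12 and -0.67, and so was Plk5, at 2.66, -3.49 and -2.51. Syt10, a synaptotagmin, was at 2.86, -3.74 and -0.01, with the normal arrays between these extremes at 1.40, 1.93 and 1.74. Against the normal bladders Osr2 and Krt84 were called higher, in bounds of at least 27.6-fold and 13.97-fold, while Syt10, Alas2, Slc4a1, Plk5, Krt79, Avil and Hbb-b1 were not called. The call of Krt84 was lost without R172H replicate 2 or 3 or normal replicate 1 or 3, with an adjusted p from limma of 0.13 without R172H replicate 3, and also under normexp correction and with only the 6 arrays fitted.

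**Figure D5:**
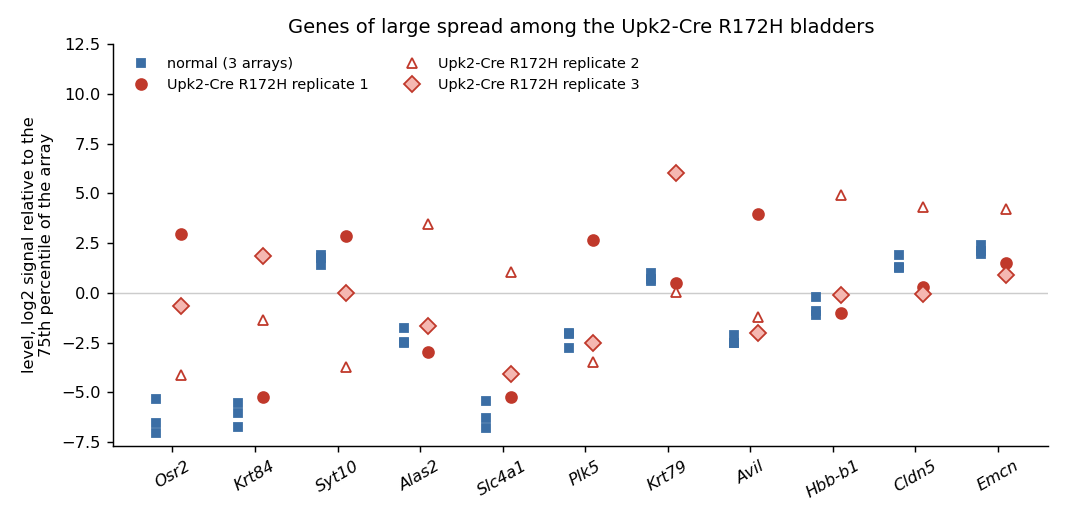
Level of 9 of the genes with the largest range among the R172H bladders, and of Cldn5 and Emcn, on each array in log2 units relative to the array's 75th percentile; blue squares are the 3 normal bladders and red symbols the 3 R172H replicates. Alas2, Slc4a1, Hbb-b1, Cldn5 and Emcn peak in replicate 2, Krt84 and Krt79 in replicate 3, and Osr2, Syt10, Plk5 and Avil in replicate 1.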

How the data were processed

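RNA of 22 mouse bladders was hybridised to 1-colour Agilent arrays; this report uses the Upk2-Cre R172H (3) and normal (3) arrays, with the other 16 for reference. The values are processed intensity per spot, deposited by the authors as scanner output, per the file headers background-corrected by Feature Extraction; the headers and the submitters' processing notes name different versions (9.1 in the notes, with limma). The authors' deposited table, on a log2 scale per its values, ranks each array as the scanner files do; how it was scaled and centred is unknown here. Scanner intensities were taken as log2, less each array's 75th percentile. Of 56605 probes, 32994 matched 1 gene symbol through their accession in RefSeq (GRCm38.p6) and 23611 none; the brightest probe stood for each gene. Genes well above background on at least 2 of 22 arrays were kept (17421), less 17 for outlier flags on spots, which left 17404. limma 3.58.1 in R 4.3.3 fitted 8 group means over all arrays, with Benjamini-Hochberg adjustment over all genes. Named genes were Trp53, Krt5, Krt14, Upk2 and Cdkn1a, the 10 highest and lowest called genes (or the 5 of smallest p), up to 4 members of smallest p per list with exceptions, and the 10 of largest range; others were picked after their values were seen, and some genes are not reported here. The members and the 37 gene lists (756 genes, 724 tested) were chosen with earlier results of these data known. The fit was tested on simulated data. Alternatives covered background correction, normalization, filters, probe choice, the arrays fitted, weights, slide, scanner, sex and replicate number, and each array left out. Replicate numbers did not pair the samples. The number of arrays limits the precision.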

Additional observations from a re-analysis of the deposited data

Results flagged for a closer look

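Hddc3 differed between the R172H bladders and other BBN groups under the same limma fit. Its level was higher than in the Upk2-Cre bladders without a mutant allele by 3.19 on the log2 scale (adjusted p = 0.0466), and higher than the mean of the 6 other BBN groups by 2.29 (adjusted p = 0.0297), in 3 of 3 R172H arrays. It was above background on all 3 of them and on 7 of the 16 other BBN arrays. Both calls were lost under many of the alternatives, as given with the processing. The Upk2-Cre R270H and normal arrays had levels near those of the R172H arrays, at -2.12 and -1.98 and at -2.51, -2.06 and -2.40, and the other Upk2-Cre and Krt5-Cre arrays were lower. The cause was not tested.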

How the results depend on the processing

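Against the normal bladders, the count of 4253 called genes was 2595 under a stricter filter that needs all 22 arrays above background and 1762 without R172H replicates 1 and 2 (chosen after seeing the data), both with fewer genes or samples fitted, and 7923 when only the 6 arrays were fitted and 9696 with array weights, where the cause was not tested. With the replicate block it was 4284, taking slide as random 3294, and leaving out 1 array at a time 2846 to 3338. Among the named genes recomputed in each alternative, no call reversed its direction; the other called genes were not followed one by one. Against Upk2-Cre, the 1 call became 0 under normexp correction, quantile normalization, either other filter, only the arrays compared, the replicate block, scanner or slide as a block, both sex covariates and animals sharing a code averaged. With the authors' deposited table it was 1, but that call was a lower gene and Hddc3 was not called (adjusted p = 0.347); with 1 array left out it was 0 to 1, and the 1, without Upk2-Cre replicate 2, was again a lower gene. Against the other BBN groups, the 1 call became 0 in those settings, with the authors' deposited table and with only the slide of the R172H arrays, except that Hddc3 stayed called with the sex label (adjusted p = 0.0209) and with averaging (adjusted p = 0.0152); it was 16 with array weights and 0 to 3 with 1 array left out. Against R270H the 0 calls became 0 to 3 with 1 array left out. Against Krt5-Cre R172H they became 1 under quantile normalization, 4 with array weights and 0 to 3 with 1 array left out. The replicate block changed no other call count by over 1.5 times. Array number and the shared slides limit these comparisons; probes near background have only bounds, and slide and group cannot be told apart against the normals.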
